A study of Mus musculus with 14 samples.

Results

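The cytosolic sulfotransferase genes Sult2a2, Sult3a1, Sult1e1, Sult1a1, Sult1b1, Sult1c2, Sult1d1 and Sult5a1 were followed in mouse liver across 3 dose groups of furan. They are 8 of the 20018 named genes on the array, and 10 of its 55681 probes matched them by RefSeq accession. The set was chosen with its dose values in these data known, so the differences between doses are given as a description. Calls of the fit across all probes are counted for the members only beside the share of all probes called, and are not read as a test of them. Of the 10 probes, 9 passed the filter on dim spots, and these 9 cover all 8 genes; the second Sult1d1 probe did not pass and is described by its values. A further 12 sulfotransferase genes on the array, with 15 probes, are given beside the members because close relatives can hybridise with each other's probes.

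The livers came from 14 female B6C3F1 mice, a hybrid strain, aged 5 to 6 weeks per the labels. The control group was 4 mice gavaged with corn oil alone, and the treated groups were 5 mice at 1 mg/kg furan and 5 mice at 8 mg/kg furan, each for 21 days. Every mouse, controls included, also drank BrdU, a thymidine analogue that marks dividing cells, for 5 days, so no group shows furan without BrdU. Livers were collected 4 h after the final gavage. Furan is a volatile liver toxicant that cytochrome P450 oxidises to a reactive dialdehyde. Whole-liver RNA, labelled with Cy5, was hybridised together with a Cy3-labelled universal mouse reference RNA, and every value here is log2 of liver over reference. The labels describe mice as biological replicates, and each mouse had 1 array. The p-values and standard errors therefore rest on the spread between these mice and their arrays that is left within slides.

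Cytosolic sulfotransferases move a sulfonate group from the donor PAPS onto hydroxyl or amine groups of hormones, bile acids, drugs and dietary phenols. The conjugates are more soluble in water and are exported in bile or urine, and some sulfate esters of foreign compounds are reactive. In rodent liver several of these genes are known to differ between the sexes under the control of growth hormone, and the Sult2a and Sult3a genes are known as female-predominant.

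In the liver channel 23065 to 29850 probes of each array passed the scanner's test for signal well above background, and precision is limited by how many arrays there are. The 14 arrays lay on 5 slides: slides 1 to 4 each held 1 mouse of each group, and slide 5 held 1 mouse at 1 mg/kg and 1 at 8 mg/kg. Slide 3 stood apart for several members. The mean log2 ratio of Sult1a1 (probe A_51_P321341) was 9.47 on slide 3 and between 8.47 and 8.81 on the others, and that of Sult1b1 was 6.53 against 5.52 to 5.82. Slide was a term in the fit, as planned from the described randomized block design, and differences within each slide are given beside the fitted ones. All 19 hepatocyte markers on the array were well above background on all 14 arrays. For small intestine 7 of 12 markers and for kidney 6 of 11 were not well above background on any array. For stomach these were 4 of 9 and for pancreas 4 of 10. Markers well above background on all 14 arrays numbered 3, 2, 2 and 4 in the same lists. These are bulk samples, in which fewer cells of a type and less RNA per cell cannot be told apart.

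Sult2a2, Sult3a1 and Sult1c2 had lower log2 ratios at 8 mg/kg than in controls, with differences of -2.62, -1.72 and -0.71, and for each of these genes the ranges of both groups did not overlap. For Sult2a2 the ranges nearly touched, at 5.02 and 5.01, and they overlapped in the authors' own ratios. Sult1e1 was higher on average at 8 mg/kg, with overlapping ranges. The probes of Sult1a1, Sult1b1, Sult1d1 and Sult5a1 differed by 0.20 or less in either direction. No member at 1 mg/kg had a range that was separate from that of the controls. The share of all probes with separate ranges is not given here, so nothing is read from this separation. Of the 9 member probes 3 were called at 8 mg/kg against control, all lower, where 3.46% of the 28867 probes tested were called (999 probes, 639 higher and 360 lower, limma, adjusted p under 0.05). The calls of Sult2a2, Sult3a1 and Sult1c2 were kept under 18, 26 and 22 of 28 alternative settings. Leaving out slide 5 or either of its arrays gives the same fit, so the 28 settings are not all distinct. At 1 mg/kg against control 0 of 9 were called, against 0% of all probes in limma, where 1916 probes had an unadjusted p under 0.05. At 8 mg/kg against 1 mg/kg 2 of 9 were called, both lower, against 5.06% of all probes. Because the genes were picked on these comparisons, nothing is read from these shares. The median difference over the 9 probes was -0.10 at 8 mg/kg and 0.12 at 1 mg/kg, each against control, beside 0.00 and 0.03 over all probes tested.

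**Figure D1:**
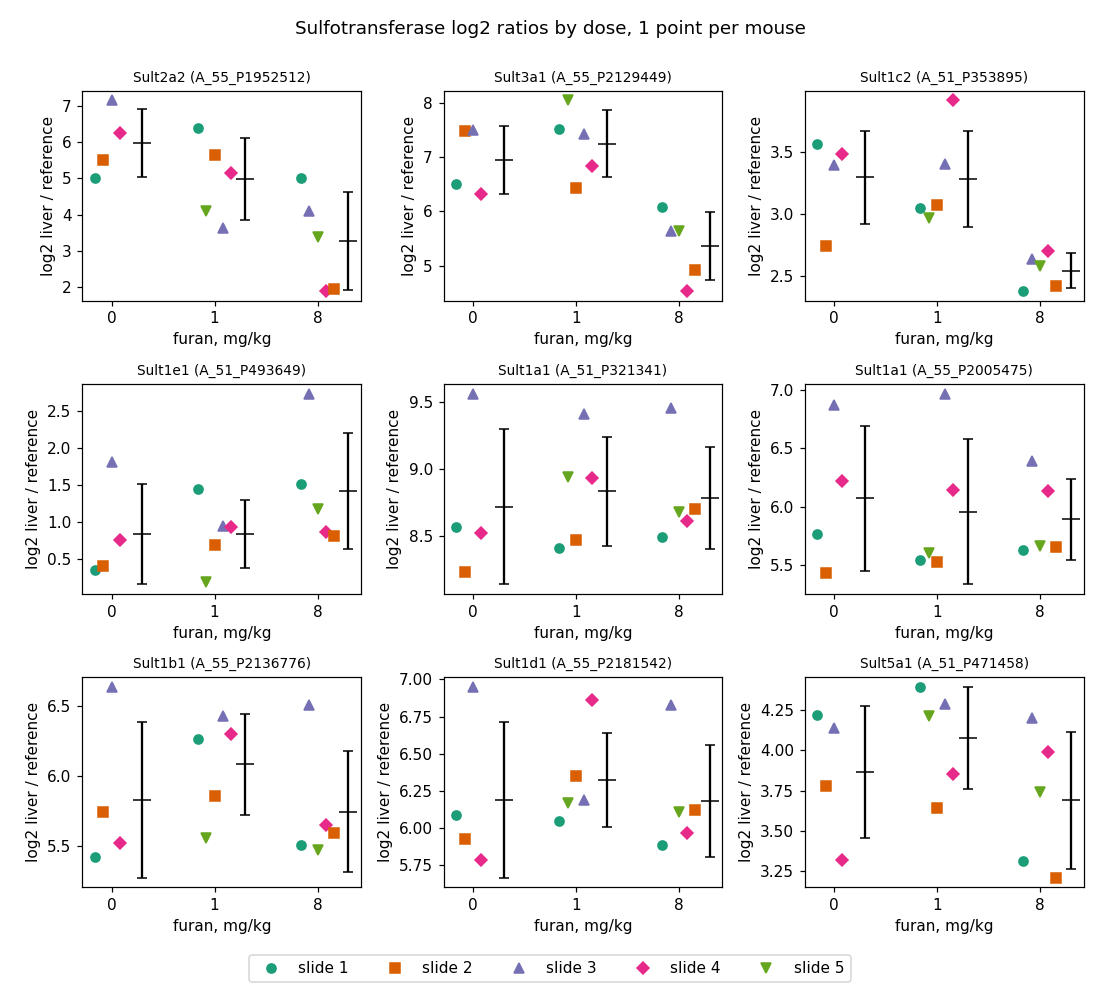
Log2 ratio of liver over reference for the 9 member probes that passed the filter (y axis, own scale per panel) against furan dose in mg/kg (x axis, categories), with 1 point per mouse, marked by slide. Horizontal and vertical bars are the group mean and SD of 4, 5 and 5 mice. For Sult3a1 the 5 mice at 8 mg/kg lie between 4.53 and 6.08 and all others at 6.31 or above, while for Sult1a1 the mice of slide 3 are the highest in each group.

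Sult2a2 encodes a hydroxysteroid sulfotransferase, of the subfamily known for dehydroepiandrosterone and bile acids. Its probe A_55_P1952512 read 5.02, 5.50, 7.16 and 6.25 in the control mice. It read 6.41, 4.10, 5.65, 3.63 and 5.16 at 1 mg/kg and 5.01, 4.11, 3.38, 1.88 and 1.94 at 8 mg/kg. The lowest control (5.02) lay just above the highest mouse at 8 mg/kg (5.01), and the mice at 1 mg/kg spanned parts of both ranges. In log2 of the authors' ratios the same control read 5.59 and the same treated mouse 5.62, so the ranges overlapped there. Group means were 5.98 ± 0.93 (SD, n = 4), 4.99 ± 1.13 (SD, n = 5) and 3.27 ± 1.37 (SD, n = 5). The fitted difference was -2.62 ± 0.63 (SE) at 8 mg/kg against control, which is 6.14-fold lower, -0.89 ± 0.63 at 1 mg/kg against control and -1.72 ± 0.58 between the doses.

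The Sult2a2 difference was uneven from slide to slide. At 8 mg/kg minus control it was 0.00 on slide 1, -3.57 on slide 2, -3.04 on slide 3 and -4.36 on slide 4. At 1 mg/kg minus control it was 1.39, 0.14, -3.52 and -1.09 on the same slides, so the negative mean at the low dose came from slides 3 and 4; without slide 3 it was -0.11. Dose accounted for 48.3% of the variance after slide, slide for 13.7% and the spread left between mice and their arrays for 38.1%. The unadjusted liver-channel intensity was 988.5 to 6523 in controls and 177 to 1096.5 at 8 mg/kg, over a local background of 66 to 72.5 in these groups. The reference channel was well above background on 2 of 4, 1 of 5 and 0 of 5 arrays of the groups, so the ratio's denominator was mostly at background. The liver channel alone, quantile normalised between arrays, gave -2.63 at 8 mg/kg against control, and the scanner software's processed signals gave -1.56.

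Sult3a1 encodes an amine sulfotransferase and is a textbook female-predominant liver transcript in mice. Probe A_55_P2129449 read 6.51, 7.47, 7.50 and 6.31 in controls. It read 7.51, 8.04, 6.43, 7.42 and 6.84 at 1 mg/kg and 6.08, 5.64, 5.63, 4.53 and 4.92 at 8 mg/kg. All 5 mice at 8 mg/kg were below every other mouse, while the control range of 6.31 to 7.50 and the 1 mg/kg range of 6.43 to 8.04 overlapped. The means were 6.95 ± 0.63 (SD, n = 4), 7.25 ± 0.62 (SD, n = 5) and 5.36 ± 0.62 (SD, n = 5).

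The fitted Sult3a1 difference was -1.72 ± 0.26 (SE) at 8 mg/kg against control, 3.30-fold lower, and -1.89 ± 0.24 against 1 mg/kg, 3.70-fold lower. At 1 mg/kg against control it was 0.17 ± 0.26, with both signs among slides (1.00, -1.04, -0.09 and 0.53). Within slides 1 to 4 the difference of 8 mg/kg from control was -0.43, -2.55, -1.87 and -1.78. Against 1 mg/kg it was negative on all 5 slides, from -1.43 to -2.41. Dose accounted for 73.1% of the variance after slide, the largest share among the 9 member probes. The reference channel was not well above background on any array, and the liver channel alone gave -1.74 at 8 mg/kg against control.

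Sult1c2 belongs to the phenol-type sulfotransferases. Probe A_51_P353895, well above background in both channels on every array, read 3.56, 2.74, 3.39 and 3.48 in controls. It read 3.05, 2.97, 3.07, 3.40 and 3.91 at 1 mg/kg and 2.38, 2.64, 2.58, 2.70 and 2.42 at 8 mg/kg. The mice at 8 mg/kg were all below the other 9, with control replicate 2 (2.74) just above the highest of them (2.70), and they were closer together than the mice of the other groups. Means were 3.29 ± 0.38 (SD, n = 4), 3.28 ± 0.39 (SD, n = 5) and 2.54 ± 0.14 (SD, n = 5). The fitted difference was -0.71 ± 0.14 (SE) at 8 mg/kg against control, 1.64-fold lower, and 0.02 ± 0.14 at 1 mg/kg. It was negative on each slide, -1.18, -0.31, -0.75 and -0.79 against control and -0.39 to -1.21 against 1 mg/kg.

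Promoters of 7 of the 8 members were matched in RefSeq tables of GRCm38.p6, as windows of 300 bases with 250 before and 50 after the annotated start. Those of Sult3a1 and Sult1c2 are printed because both genes were lower at 8 mg/kg in every mouse than in any control. The share of all probes separated in this way is not given, so this is a rule of choice only. The window of Sult2a6 is printed because a probe of this close relative of Sult2a2 followed it across mice, as described further on. Each reads 5′ to 3′ on the gene's strand, with matches to 5 motifs searched on both strands in capitals: TTCNNNGAA (STAT), AGGTCA (nuclear receptors), GTTAAT (HNF1), TGACNNNGC (antioxidant response element core) and, for the TATA box, the letters TATAAA. Sult2a2 itself is named only.
Sult3a1, chr10:33857472-33857771, plus strand: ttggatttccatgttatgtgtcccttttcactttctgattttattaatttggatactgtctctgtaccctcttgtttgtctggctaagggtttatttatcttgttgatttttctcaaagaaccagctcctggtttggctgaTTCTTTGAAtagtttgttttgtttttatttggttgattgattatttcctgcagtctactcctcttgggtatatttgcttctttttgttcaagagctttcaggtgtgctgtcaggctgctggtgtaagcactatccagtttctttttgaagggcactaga
Sult1c2, chr17:53845909-53846208, minus strand: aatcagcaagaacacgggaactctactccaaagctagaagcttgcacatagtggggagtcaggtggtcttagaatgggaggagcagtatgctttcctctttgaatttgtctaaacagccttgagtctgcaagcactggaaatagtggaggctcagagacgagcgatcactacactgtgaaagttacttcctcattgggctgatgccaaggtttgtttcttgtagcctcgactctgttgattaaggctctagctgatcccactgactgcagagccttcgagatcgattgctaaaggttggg
Sult2a6, chr7:14254821-14255120, minus strand: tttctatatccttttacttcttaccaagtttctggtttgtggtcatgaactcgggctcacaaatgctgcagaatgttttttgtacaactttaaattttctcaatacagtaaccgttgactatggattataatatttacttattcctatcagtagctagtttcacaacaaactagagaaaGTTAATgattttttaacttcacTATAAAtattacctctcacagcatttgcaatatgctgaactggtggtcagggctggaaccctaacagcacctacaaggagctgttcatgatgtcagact

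The Sult3a1 window held TTCTTTGAA, a match to the STAT motif, 109 bases before the start, and no other match. This motif reads alike on both strands and occurs in 8.3% of the 32851 promoter windows of this length in the table. The Sult1c2 window held none of the 5 motifs. The Sult2a6 window held GTTAAT 71 bases and TATAAA 49 bases before the start, motifs found in 7.1% and 13.6% of windows. GTTAAT was also present in the windows of Sult1a1, Sult1d1, Sult2a3, Sult2a4, Sult2a5 and Sult3a2 and absent from both windows of Sult2a8. The matches did not overlap, and a match here is a string of letters, not a measured site. The Sult3a1 and Sult3a2 windows, from neighbouring genes, were identical at 45.0% of alignment positions, gaps counted. The figure was 70.7% for Sult2a3 and Sult2a6 and 47.2% for Sult2a6 and Sult2a8. For Sult1e1 and Sult1a1, on different chromosomes, it was 43.2%.

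Sult1e1 encodes estrogen sulfotransferase, which inactivates estradiol at very low concentrations of the hormone and is known to be low in the liver of untreated female mice. Probe A_51_P493649 was dim: in the liver channel it cleared background on 3 of 4 control arrays, 4 of 5 at 1 mg/kg and 5 of 5 at 8 mg/kg, and in the reference channel on no array. It read 0.36, 0.41, 1.81 and 0.76 in controls and 1.45, 0.19, 0.69, 0.95 and 0.93 at 1 mg/kg. The mice at 8 mg/kg read 1.52, 2.73, 1.18, 0.86 and 0.81. The highest control (1.81) and the highest treated mouse (2.73) were both on slide 3.

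The Sult1e1 difference at 8 mg/kg against control was 0.70 ± 0.25 (SE), and positive on slides 1 to 4 (1.16, 0.40, 0.93 and 0.10). The ranges overlapped over most of their length. At 1 mg/kg it was 0.12 ± 0.25. The size depended on how dim spots were treated: the scanner software's processed signals gave 1.76 at 8 mg/kg against control, and the liver channel alone gave 0.52. Its RefSeq window (chr5:87591562-87591861, minus strand) held AGGTCA, on the opposite strand and 113 bases before the start, a motif in 16.3% of windows. The motif was also present in 1 window of Sult1b1 and in 1 of Sult2a8, and absent from the other window of each gene.

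Sult1a1 encodes the main phenol sulfotransferase of liver, and neither of its probes differed by more than 0.11 from control at either dose. Probe A_51_P321341 had means of 8.72 ± 0.58 (SD, n = 4), 8.83 ± 0.41 (SD, n = 5) and 8.79 ± 0.38 (SD, n = 5) at 0, 1 and 8 mg/kg, and ranges of 8.23 to 9.56, 8.41 to 9.41 and 8.49 to 9.45. Its fitted difference was 0.07 ± 0.11 (SE) at 8 mg/kg and 0.11 ± 0.11 at 1 mg/kg. Probe A_55_P2005475 gave -0.10 ± 0.11 and -0.04 ± 0.11. For these probes slide accounted for 88.7% and 92.5% of the variance and dose after slide for 1.16% and 0.703%. The slide 3 arrays were the highest of each group on both probes.

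Sult1b1, which sulfonates thyroid hormones and small phenols, and Sult1d1, which acts on catecholamines in mice, lie next to Sult1e1 on chromosome 5 with no other coding gene between them. Sult1b1 (A_55_P2136776) ranged from 5.42 to 6.64 in controls, 5.56 to 6.43 at 1 mg/kg and 5.47 to 6.51 at 8 mg/kg. Its difference was 0.02 ± 0.14 (SE) at 8 mg/kg and 0.36 ± 0.14 at 1 mg/kg, the largest positive difference of a member at the low dose. Within slides the latter was 0.84, 0.12, -0.20 and 0.79. Sult1d1 (A_55_P2181542) ranged from 5.79 to 6.95, 6.05 to 6.86 and 5.89 to 6.83, with differences of 0.02 ± 0.20 and 0.17 ± 0.20. The 3 neighbouring genes thus had differences of 0.02, 0.02 and 0.70 at 8 mg/kg.

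The second Sult1d1 probe, A_55_P2181538, was well above background on 1 array at 1 mg/kg and 1 at 8 mg/kg, which were the 2 arrays of slide 5. They read 1.13 and 1.09, and the other 12 arrays read between -0.09 and 0.34. Sult5a1, a member with no well-known substrate, read 4.22, 3.78, 4.14 and 3.32 in controls and 4.39, 4.21, 3.64, 4.29 and 3.85 at 1 mg/kg. At 8 mg/kg it read 3.31, 4.20, 3.74, 3.99 and 3.21. The ranges overlapped throughout, and the difference of -0.20 ± 0.18 (SE) at 8 mg/kg had both signs among slides, from -0.91 on slide 1 to 0.67 on slide 4. Against 1 mg/kg it was -0.38 ± 0.17.

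**Figure D2:**
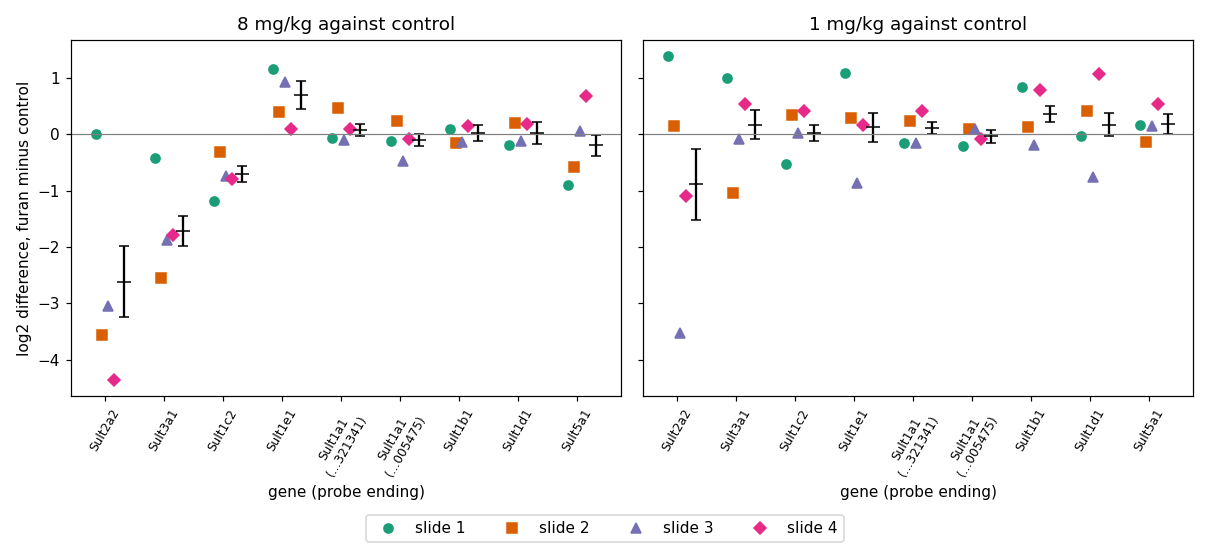
Difference in log2 ratio between a treated and a control mouse of the same slide (y axis) for each member probe (x axis), at 8 mg/kg on the left and 1 mg/kg on the right, with 1 point for each of slides 1 to 4. Horizontal and vertical bars are the fitted difference and its SE. At 8 mg/kg Sult3a1 and Sult1c2 are below 0 on all 4 slides and Sult1e1 above 0 on all 4, while Sult2a2 runs from 0.00 to -4.36; at 1 mg/kg Sult2a2 runs from 1.39 to -3.52.

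Sult2a2 lies in a run of Sult2a genes on chromosome 7 with no other coding gene between them, in the order Sult2a5, Sult2a2, Sult2a1, Sult2a4, Sult2a3, Sult2a6, Sult2a8 and Sult2a7. Genes of this subfamily are known to have similar transcripts. Probe sequences were not compared here, so the probes are not taken as separate measurements of separate genes. Sult2a6 probe A_55_P2172532 read 5.13, 6.04, 7.53 and 6.60 in controls, 6.55, 4.52, 6.03, 3.75 and 5.37 at 1 mg/kg and 5.45, 4.28, 3.54, 2.28 and 2.39 at 8 mg/kg. It fell by 2.64 ± 0.65 (SE) at 8 mg/kg, 6.23-fold (limma, adjusted p = 0.0403), a call kept under 13 of 28 alternative settings. A second Sult2a6 probe, A_55_P2107223, differed by -2.44 ± 0.65 (limma, adjusted p = 0.0522), and the third, A_55_P2107225, was not well above background on any array.

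Across the 14 arrays, after each slide's mean was subtracted, Sult2a2 correlated at 1.00 and 0.99 with these Sult2a6 probes, at 0.92 with Sult2a1 and at 0.84 with Sult2a4. These coefficients describe arrays that share slides, reference and dose groups, and carry no test. For Sult2a2 and both Sult2a6 probes the highest of the 14 arrays was control replicate 3, and the 2 lowest were 8 mg/kg replicates 4 and 5. Sult2a1 differed by -1.70 ± 0.70 (SE) at 8 mg/kg against control (limma, adjusted p = 0.203) and the dim Sult2a4 by -0.49 ± 0.28 (limma, adjusted p = 0.355). How much of each value comes from a relative's transcript was not tested.

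At the far end of the run, Sult2a8 and Sult2a7 had other profiles. Sult2a8 (A_51_P189733) had differences of -0.31 ± 0.10 (SE) at 8 mg/kg against control (limma, adjusted p = 0.110) and fell by 0.44 ± 0.09 against 1 mg/kg (limma, adjusted p = 0.0157). Slide 5 held its lowest readings, 7.08 and 6.82, against 7.56 to 9.02 on the other arrays. Sult2a7 (A_52_P293682) was on the other side of 0, at 0.70 ± 0.22 against control (limma, adjusted p = 0.0916), and rose by 0.73 ± 0.20 against 1 mg/kg (limma, adjusted p = 0.0473), a call kept under 9 of 28 alternatives. After slide means were subtracted it correlated at -0.78 with Sult3a1 and at -0.35 with Sult2a2.

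Sult3a2, the neighbour and relative of Sult3a1 on chromosome 10, read between 0.47 and 1.98 in controls, 2.26, 2.18, 0.89, 1.99 and 0.89 at 1 mg/kg and 1.19, 0.60, 0.71, 0.26 and 0.31 at 8 mg/kg. It was well above background on 4 of 4, 5 of 5 and 3 of 5 arrays. Its difference was -0.66 ± 0.28 (SE) against control (limma, adjusted p = 0.212), and it fell by 1.03 ± 0.25 against 1 mg/kg (limma, adjusted p = 0.0323), a call kept under 16 of 27 alternatives. It correlated at 0.87 with Sult3a1 over the 14 arrays. Of the 8 tested sulfotransferase genes outside the members, 0 rose and 1 fell at 8 mg/kg against control, with a median difference of -0.40. Of all probes 3.46% were called there. The Sult2a probes among these are not taken as separate measurements, which limits this median. Against 1 mg/kg 1 rose and 2 fell, where 5.06% of all probes were called. At 1 mg/kg against control 0 of 8 passed in limma and 0 had an unadjusted p under 0.05. Sult1c1, Sult2a3, Sult6b1 and Sult6b2 were not tested because too few arrays were above background.

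**Figure D3:**
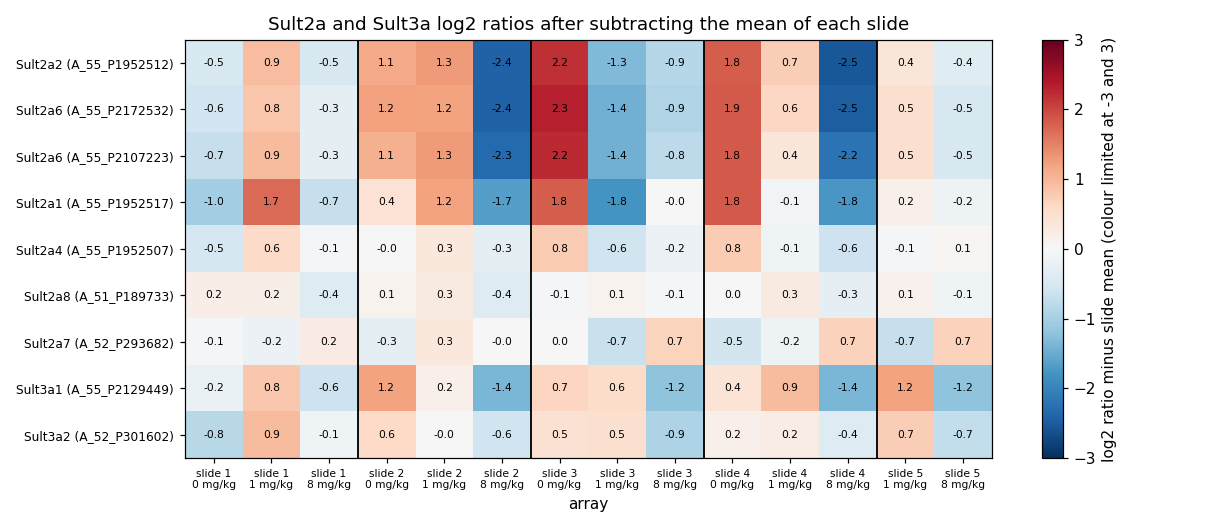
Log2 ratio of each array minus the mean of its slide (colour and printed value, limited to -3 and 3 for colour) for the Sult2a and Sult3a probes that passed the filter (rows), with arrays ordered by slide and dose (columns). On slides 2 and 4 the array at 8 mg/kg is the lowest of its slide for Sult2a2, both Sult2a6 probes and Sult2a1, while on slide 3 the array at 1 mg/kg is the lowest for these 4 probes.

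For the 3 members with the largest differences, the 5 named genes whose probes were most alike over the 14 slide-centred arrays were listed. The measure is Pearson's r, it includes the dose differences, and it carries no test. For Sult2a2 these were Sult2a6 (r = 1.00), Hlcs (0.95), Enpp4 (0.94), Fcgr1 (0.93) and Pstpip2 (0.92). The last 4 differed by only -0.19 to -0.51 at 8 mg/kg against control, a smaller amplitude than that of Sult2a2. Fcgr1 was well above background on 11 of the 14 arrays. For Sult3a1 they were Cnpy2 (0.97), Nxpe2 (0.95), Smim1 (0.95), Amy2a5 (0.94) and Glul (0.94), with differences of -0.34 to -0.74. For Sult1c2 they were Marchf8 (0.97), Emp2 (0.96), Dnase1l1 (0.95), Phyhd1 (0.95) and the fructose transporter gene Slc2a5 (0.95), with differences of -0.19 to -0.94. Sult2a2 and Sult3a1 correlated at 0.72 with each other, and Sult1c2 at 0.71 with Sult3a1 and 0.56 with Sult2a2.

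Of 17 tested genes on a list of sulfate supply, 0 rose and 1 fell at 8 mg/kg against control, with a median difference of 0.09. Of all probes 3.46% were called in this comparison. The list holds genes of sulfate uptake, of PAPS synthesis, transport and by-product removal, and of the cysteine, sulfide and sulfite metabolism that yields sulfate. The gene that fell was Slc26a1, a sulfate and oxalate exchanger of the hepatocyte's sinusoidal membrane, by 0.39 ± 0.08 (SE; limma, adjusted p = 0.0198), a call kept under 16 of 28 alternatives. Papss2, the main PAPS synthase of liver, differed by -0.32 ± 0.10 (limma, adjusted p = 0.102). Of 12 tested genes on a list of sulfatases, whose products remove sulfate, and their activating factors Sumf1 and Sumf2, 0 passed the limma fit and 2 had an unadjusted p under 0.05. Arsb, which acts on dermatan sulfate, differed by 0.26 ± 0.10 (limma, adjusted p = 0.163).

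Of 29 nuclear receptors and liver regulators, 1 rose and 1 fell at 8 mg/kg, with a median of -0.02. Of all probes 3.46% were called in this comparison with control. Nfe2l2, the activator of antioxidant response genes, rose by 0.76 ± 0.11 (SE; limma, adjusted p = 0.00155). Nr0b2, the bile acid responsive repressor SHP, fell by 1.03 ± 0.27 (limma, adjusted p = 0.0480), a call kept under 6 of 28 alternatives. Of 19 targets of the xenobiotic receptors CAR and PXR, 3 rose and 0 fell, with a median of 0.05: Ephx1 by 0.92 ± 0.08 (limma, adjusted p = 5.3e-05), Gstm1 by 0.88 ± 0.11 (limma, adjusted p = 0.000531) and Ugt2b35 by 0.88 ± 0.18 (limma, adjusted p = 0.0147). The epoxide hydrolase Ephx1 and the glutathione transferase Gstm1 thus had differences of the opposite sign to those of Sult2a2, Sult3a1 and Sult1c2.

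Of 21 female-biased liver genes outside the members, 1 rose and 1 fell at 8 mg/kg, with a median of -0.15. The organic anion transporters Slc22a27 and Slc22a26 gave these calls, at 0.75 ± 0.13 (SE; limma, adjusted p = 0.00638) and -0.65 ± 0.14 (limma, adjusted p = 0.0219), the latter kept under 18 of 28 alternatives. Of 18 male-biased genes 0 rose and 2 fell, with a median of -0.18, where 3.46% of all probes were called: the fatty acid elongase Elovl3 by 0.94 ± 0.18 (limma, adjusted p = 0.0112) and Nudt7, a coenzyme A hydrolase, by 0.52 ± 0.10 (limma, adjusted p = 0.0113). Between the doses 3 of the 21 female-biased and 4 of the 18 male-biased genes fell at 8 mg/kg against 1 mg/kg and 0 of either list rose, beside 5.06% of all probes called. Of 28 steroid and bile acid genes 2 rose and 0 fell, with a median of -0.10. They were Srd5a2, a steroid reductase, by 0.45 ± 0.08 (limma, adjusted p = 0.00997) and the bile acid importer Slc10a1 by 0.40 ± 0.10 (limma, adjusted p = 0.0477), whose call held under 3 of 28 alternatives. Against 1 mg/kg 1 gene of this list rose and 2 fell, and of the CAR and PXR targets 5 rose and 0 fell.

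At 8 mg/kg against control, where 3.46% of all probes were called, 1 of 19 hepatocyte markers fell and 0 rose, with a median of -0.05. The urea cycle gene Cps1 fell by 0.34 ± 0.08 (SE; limma, adjusted p = 0.0382), a call kept under 7 of 28 alternatives. The summed background-subtracted intensity of the hepatocyte markers ranged from 2250000 to 3900000 in controls, 2510000 to 3810000 at 1 mg/kg and 2160000 to 3830000 at 8 mg/kg. Of 4 tested small intestine markers Fabp2, a fatty acid binding protein gene, fell by 0.55 ± 0.11 (limma, adjusted p = 0.0128), a call kept under 17 of 28 alternatives. The other 3 did not pass in limma, and the median difference of the 4 was 0.08. The list's summed intensity ranged from 15000 to 39400 in controls, 16400 to 47000 at 1 mg/kg and 8680 to 28800 at 8 mg/kg. Of 5 tested pancreas markers the amylase gene Amy2a5 fell by 0.73 ± 0.11 (limma, adjusted p = 0.00206), with sums of 1900 to 3760, 1890 to 4050 and 1150 to 3050. The other 4 did not pass in limma, and the median difference of the 5 was -0.11. The part of these markers in the sulfotransferase values was not tested. Of the 12 small intestine markers 3 were well above background on all 14 arrays, as were 4 of the 10 pancreas markers. Among those not well above background on any array were Cdx1, Cdx2, Alpi, Lct, Prss2, Cpa1 and Cpb1. In limma 0 of the tested kidney (4), stomach (4), cholangiocyte (8), Kupffer cell and macrophage (10) and erythroid (6) markers passed at 8 mg/kg, where 3 of these genes had an unadjusted p under 0.05. At 1 mg/kg against control 0 of the 204 list genes tested passed in limma, and 24 had an unadjusted p under 0.05.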

How the data were processed

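Liver RNA of 14 mice was measured on 2-colour arrays. The deposited files held spot intensities with local background, read, per the file headers, with Feature Extraction 10.7.3.1. A table by the authors of linear ratios of Cy5 over Cy3 served as an alternative; log2 of its columns correlated at 0.992 to 0.995 with the log2 ratios computed here, its column medians were 0.9765 to 0.9897, and how it was normalised was not given in the sources used here.

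Median intensities were corrected with normexp (offset 50), and log2 ratios of sample over reference were normalised by loess within arrays, without weight for the 3671 control spots, in limma 3.58.1 (R 4.3.3). Spots flagged as outliers (178 to 336 per array) were left out, no spot was saturated, and spots of a probe were averaged. Probes well above background in the liver channel on at least 4 of 14 arrays were fitted with lmFit and eBayes, with dose and slide as terms and Benjamini-Hochberg adjustment over all 28867 probes (threshold 0.05). All arrays had 1 dye orientation, so a dye effect is common to all groups. Probes were named by RefSeq accession (GRCm38.p6): 26413 of 55681 had a symbol.

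Named were all member probes, list genes that passed at 8 mg/kg against control (otherwise those with the smallest p), and the 5 genes most alike to each of 3 members; the other sulfotransferases and Papss2 were named outside this rule, with their values known. In a list a gene was represented by its brightest probe. The values of 1 list gene are not reported here. The members and lists were chosen with earlier results of these data known. The fit was tested on simulated data. Alternatives were other background corrections, normalisations, filters and blocks, the authors' ratios, and leaving out each array or a slide.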

Additional observations from a re-analysis of the deposited data

Results flagged for a closer look

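Among the 30 combinations of member probe and group, 4 held a mouse far from the others of its group by Dixon's ratio, a rule that chance meets in about 1 in 20 groups. In 3 of them the mouse was 8 mg/kg replicate 2, whose array lay on slide 3. It read 9.45 for Sult1a1 (A_51_P321341), where the other 4 mice read 8.49 to 8.70. It read 6.51 for Sult1b1, with the others at 5.47 to 5.65, and 6.83 for Sult1d1 (A_55_P2181542), with the others at 5.89 to 6.12. The control mouse of slide 3 was also the highest of its group on these 3 probes, at 9.56, 6.64 and 6.95. The 1 mg/kg mouse of slide 3 was the highest of its group for Sult1a1 (9.41) and Sult1b1 (6.43). For Sult1d1 it was not, at 6.19 in a group range of 6.05 to 6.86. The other combination was the second Sult1d1 probe (A_55_P2181538) at 1 mg/kg, where replicate 2, on slide 5, read 1.13 and the others 0.06 to 0.18.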

How the results depend on the processing

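Each result was recomputed under 28 alternatives, of which leaving out slide 5 was added after the data were seen. Leaving out slide 5, 1 mg/kg replicate 2 or 8 mg/kg replicate 3 is the same fit. These mice were the only ones on slide 5, and slide was a term. Their counts below, 628 against control and 651 between the doses, are therefore not separate results. At 8 mg/kg against control the differences of Sult2a2 (-3.43 to -1.56), Sult3a1 (-2.08 to -1.38) and Sult1c2 (-0.83 to -0.48) were negative under all 28, and that of Sult1e1 (0.46 to 1.76) was positive under all 27 that kept its probe. The fit across all probes called 0 to 3 member probes lower, 0 of them with the replicate block and 1 without slide 3, without slide in the model or with the scanner's processed signals, and 1 higher, Sult1e1, without 1 mg/kg replicate 4 (0.73). Calls at 8 mg/kg against control, 999 in the report, numbered 378 (267 higher, 111 lower) with processed signals, 1598 (1542 higher, 56 lower) with median centring, 1628 (873 higher, 755 lower) with the liver channel alone, 331 without slide in the model, 388 with only the groups compared, 489 without slide 3 and 628 without slide 5. Median centring moved the median difference of all probes to 0.129 at 8 mg/kg and 0.138 at 1 mg/kg. With 1 array left out they ranged from 383 to 921: 383, 492, 441 and 650 without control replicates 1 to 4, 628 without 1 mg/kg replicate 2, and 389, 628 and 450 without 8 mg/kg replicates 1, 3 and 5. At 1 mg/kg against control, 0 in the report, 1 probe was called without background correction, 1 with the authors' ratios, 1 without the filter on dim probes and 3 with median centring, and 0 to 3 with 1 array left out. At 8 mg/kg against 1 mg/kg, 1461 in the report (653 higher, 808 lower), 414 were called with processed signals (267 higher, 147 lower), 510 with median centring (349 higher, 161 lower), 369 without slide in the model (225 higher, 144 lower) and 651 without slide 5, and 559 to 1600 with 1 array left out: 589, 651, 918 and 921 without 1 mg/kg replicates 1, 2, 3 and 5, and 559, 651 and 782 without 8 mg/kg replicates 1, 3 and 5. The replicate numbers share only a number: deviations of same-numbered mice correlated at -0.30 to 0.18 between 8 mg/kg and control. A replicate block in place of slide gave 141 calls at 8 mg/kg and 0 at 1 mg/kg against control, and 177 between the doses. The causes of these shifts were not tested. For Sult2a2, Sult3a1, Sult1e1 and Sult1d1 the reference channel was at or near background on most arrays, which limits the ratio.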

Other observations

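A probe of Sult4a1 (A_52_P562676), a gene known for expression in brain, followed the Sult2a probes from mouse to mouse without a dose call of its own, close to the floor of detection. Its liver-channel intensity was 83 to 125 over a local background of 66 to 80, and it was well above background on 11 of 14 arrays, 2 of them controls. After slide means were subtracted it correlated at 0.88 with Sult2a2, 0.90 and 0.91 with the Sult2a6 probes, 0.83 with Sult2a1 and 0.71 with Sult3a1 over the 14 arrays, which share slides, reference and dose groups. Its difference at 8 mg/kg against control was -0.20 ± 0.11 (SE; limma, adjusted p = 0.369), and 0.27 with the scanner's processed signals. Its second probe was not well above background on enough arrays to be tested. Sult2b1, known for cholesterol and pregnenolone in skin, was well above background on 6 arrays, differed by -0.04 ± 0.11 at 8 mg/kg (limma, adjusted p = 0.865) and correlated at -0.07 with Sult2a2.

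Sult2a8 correlated at 0.84 with Sult1c2 and at 0.57 with Sult2a2. Sult1e1 correlated at 0.70 with Sult2a7 and at -0.61 with Sult1c2. These pairs were picked after the coefficients were seen and are given as values.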
